A study of Homo sapiens with 4 samples.

Results

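The sgRNA directed against the CpG island (CGI) of the ISG15 promoter recognizes its target through 20 bases that lie next to an NGG protospacer adjacent motif (PAM). Places in hg19 that share only the 10 PAM-proximal bases of this sgRNA, called the seed here, were collected on both strands of chromosomes 1 to 22 and X. They had to match all 10 seed bases, to be followed by an NGG PAM, and were free to differ in the other 10 bases. The search gave 106 seed sites among 295693854 sites with an NGG PAM. One of them is the target itself, and the other 105 carry between 3 and 10 mismatches. The rule uses sequence only and no value of the peak list.

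The study used HEK293, a human embryonic kidney cell line, and compared untreated cells with cells that had received dCas9-SunTag, the sgRNA and an antibody fused to the catalytic domain of DNMT3A and to DNMT3L (Ab-3A3L), either as wild type or with the DNMT3A mutation K844E or R887E. Transfection was transient, and after 3 days the cells were sorted for those that carried each plasmid, so every treated group also holds the same dCas9-SunTag and the same sgRNA. There was 1 library for each of the 4 conditions. All values are of the cells with wild type Ab-3A3L, taken from the deposited list of regions that gained an MBD2-pulldown peak over untreated cells, and the other libraries were not analysed here.

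dCas9 first reads the PAM and then pairs the sgRNA with the DNA from the PAM outwards. Mismatches close to the PAM therefore usually cost more binding than mismatches at the far end, and places that keep only the seed can be bound briefly. DNMT3A adds methyl groups to cytosines in CpG dinucleotides, and DNMT3L stimulates it. In MBD-seq, DNA fragments with methylated CpGs are caught by the domain of MBD2 that recognizes methylated CpGs. A region with many CpGs can therefore give a peak more easily than one with few. Seed sites were for this reason compared with NGG sites that have as many CpGs around them.

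The sequences of the sgRNA, of the target and of the 12 printed seed sites in new peaks show how much of the sgRNA each of them keeps. Each is written 5′ to 3′ on the strand that matches the sgRNA, with the 3 bases of the PAM at its end, and the capitals mark bases that differ from the sgRNA. Coordinates are those of hg19 and cover the 23 bases shown. In the first line, the sgRNA without PAM, the capitals mark the seed instead.
ISG15 sgRNA: gttcgctgccTCTCAGCCGC
ISG15 target, chr1:948875-948897, minus strand: gttcgctgcctctcagccgccgg
OTULIN, chr5:14664837-14664859, minus strand: gGCcgcAgcctctcagccgccgg
ENC1, chr5:73936791-73936813, plus strand: gGAcgcACTGtctcagccgctgg
SGSM2, chr17:2240566-2240588, plus strand: CGAGgctCGctctcagccgcggg
ATP2C1, chr3:130613133-130613155, minus strand: gGCTgcGgGGtctcagccgcggg
FOXO6, chr1:41827477-41827499, minus strand: gGCGgcGCTGtctcagccgcggg
NCKAP1, chr2:183903174-183903196, minus strand: gCGGCctCGTtctcagccgccgg
PSMA1, chr11:14542102-14542124, minus strand: gCCcCGCAGctctcagccgccgg
GRB14, chr2:165477960-165477982, minus strand: CGGcCGCgcGtctcagccgccgg
THBS1, chr15:39873549-39873571, plus strand: AGCcCGCTcctctcagccgctgg
CPLX2, chr5:175223919-175223941, plus strand: TCCcTGGAGctctcagccgccgg
NATD1, chr17:21156122-21156144, minus strand: gGGTCcCCTGtctcagccgcagg
NEUROG3, chr10:71337762-71337784, minus strand: gCATTGACGGtctcagccgccgg

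Of the 106 seed sites, 13 lay in a new peak of the wild type library, or 12.3% (95% exact binomial interval 6.69% to 20.1%), each in a peak of its own. Of all NGG sites, 0.701% lay in a new peak. The 13 peaks are 0.102% of the 12792 new peaks on these chromosomes. The seed itself holds 1 CpG, and of the NGG sites with 1 CpG in these 10 bases 2.77% lay in a new peak. When each seed site was given the share of all NGG sites with the same number of CpGs within 500 bp, 6.79 sites in new peaks resulted, so the observed number was 1.92 times that. Dividing the interval of the observed count by the same number gave 1.05 to 3.13. It covers counting error only, and with 1 library there was no replicate spread to set a difference against. The lower bound passed under 1 in 9 of 14 alternatives, among them the one with 1000 bp in place of 500 bp, where the ratio was 1.70 (0.930 to 2.79), and the one with the G+C percent matched as well, where it was 1.82 (0.993 to 2.97).

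The seed sites in new peaks stood in CpG-rich surroundings without exception. They had from 26 to 75 CpGs in 500 bp with a median of 47, while the 93 sites outside had from 1 to 76 with a median of 11, so the ranges overlap. No seed site with fewer than 20 CpGs lay in a new peak, 0 of 71, which allows a share of up to 5.06% by the exact interval. Among all NGG sites with fewer than 20 CpGs, 0.0230% did. With 20 to 29 CpGs it was 2 of 18 seed sites, against 2.02% of all NGG sites. Of the 5 seed sites with 30 to 39 CpGs, 3 lay in a new peak, against 13.5% of all NGG sites, and of the 12 with 40 or more, 8 did, against 41.6%. Over the 35 seed sites with at least 20 CpGs, the 13 in new peaks compare with 6.74 given by their CpG number.

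**Figure D1:**
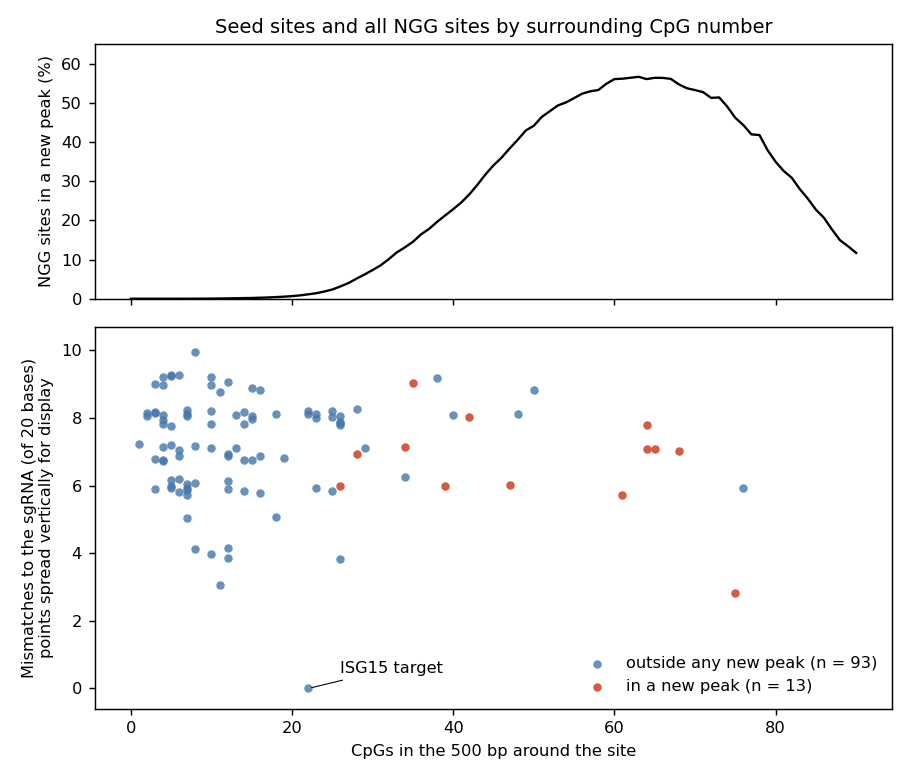
The upper panel plots, for all NGG sites of chromosomes 1 to 22 and X, the percentage in a new peak of the wild type library against the number of CpGs in the 500 bp around the site. The lower panel plots the 106 seed sites on the same axis against their mismatches to the sgRNA, with the 13 sites in a new peak in red and the 93 others in blue; all red points lie at 26 CpGs or more, and the ISG15 target lies at 22.

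The share in new peaks was also counted by the number of mismatches in the PAM-distal bases. Of the 9 sites with 3 to 5 mismatches 1 lay in a new peak, against 0.500 given by CpG number. With 6 or 7 mismatches 9 of 46 sites lay in a new peak, against 3.74, and with 8 to 10 mismatches 3 of 50, against 2.54. The stretch of matched bases counted from the PAM gave 8 of 65 sites in a new peak at exactly 10 bases, 3 of 25 at 11 bases, and 2 at 12 or more, of 16 sites that include the target outside any new peak. The numbers given by CpG content were 4.48, 1.74 and 0.566, for ratios of 1.79 (0.794 to 3.31), 1.72 (0.365 to 4.47) and 3.54 (0.439 to 10.8). The shares in a new peak were 12.3%, 12% and 12.5%. Their exact intervals, 5.47% to 22.8%, 2.55% to 31.2% and 1.55% to 38.3%, overlap, and a difference between them was not detectable with so few sites.

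The same sgRNA offers matches that should be bound less or not at all, and these were counted in the same way. The seed followed by NAG, a weaker PAM, was found at 60 sites, of which 6 lay in a new peak, or 10% (3.76% to 20.5%). The background for NAG sites was 0.270%, and the number given by CpG content 3.05. The seed followed by neither NGG nor NAG was found at 1183 places, and 54 of them lay in a new peak, or 4.56% (3.45% to 5.91%), against 0.261% of all such places and 40.8 given by CpG content. The 10 PAM-distal bases with an NGG PAM and any seed occurred at 38 sites, 1 of them the target, and 3 lay in a new peak, or 7.89% (1.66% to 21.4%), against 2.22 given by CpG content.

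Set against CpG content, the 4 kinds of match gave ratios of 1.92 for the seed with NGG, 1.96 for the seed with NAG (0.739 to 4.03), 1.32 for the seed with neither PAM (0.999 to 1.71) and 1.35 for the PAM-distal bases (0.283 to 3.65). The interval of the seed with NGG, 1.05 to 3.13, overlaps each of the others. The difference between the kinds of match was not tested. The intervals of their shares before CpG content was taken into account did not all overlap. They were 6.69% to 20.1% for the seed with NGG and 3.45% to 5.91% for the seed with neither PAM. The backgrounds differ in the same direction, with 0.701% of all NGG sites and 0.261% of all places with neither PAM in a new peak.

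**Figure D2:**
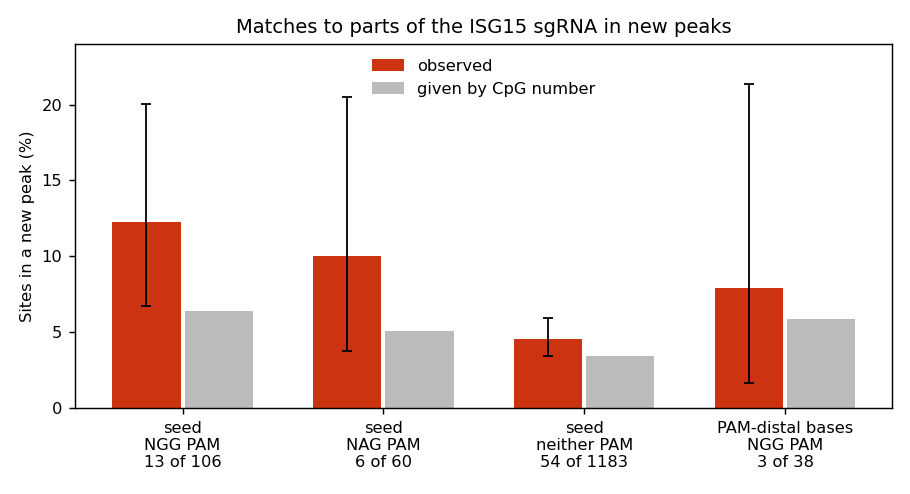
Bars give the percentage of sites in a new peak for 4 kinds of partial match to the ISG15 sgRNA, observed (red, with 95% exact binomial intervals) and given by the share of all sites of the same PAM kind with the same CpG number in 500 bp (grey). The observed share was above the grey bar in each kind, from 4.56% for the seed with neither PAM to 12.3% for the seed with NGG, and the intervals are wide where sites are few.

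Seed sites were more frequent in CGIs and promoters than NGG sites at large. Of the 106 sites, 26 or 24.5% lay in a CGI rebuilt from the hg19 sequence, against 2.55% of all NGG sites. The seed holds 1 CpG, which NGG sites at large need not have. A high share in CGIs was not particular to these sites. It was 20.9% for a seed shortened to 8 bases, whose sites include the 106, and 18.4% for the PAM-distal bases. For the seed with NAG it was 13.3%, and for the seed with neither PAM 12%. The difference between these shares was not tested. In CGIs 11 of the 26 seed sites were in a new peak, or 42.3% (23.4% to 63.1%), against 24.6% of the NGG sites there, and 6.45 were given by NGG sites in CGIs with the same CpG number. Outside CGIs it was 2 of 80 seed sites, or 2.5% (0.304% to 8.74%), against 0.076% of the NGG sites there. The number given by NGG sites outside CGIs with the same CpG number was 0.290. Both of these seed sites, near ARFGEF1 and at NATD1, lie at coding promoters, 391 bp and 578 bp from the start site. Within 1000 bp of the start site of a protein-coding gene lay 15 seed sites, 11 of them in a new peak, or 73.3% (44.9% to 92.2%). Of the NGG sites at such promoters 21.5% were in a new peak, but the seed sites at promoters are CpG-rich, with a median of 42 CpGs in 500 bp, and 5.77 were given by promoter sites with the same CpG number. Away from promoters 2 of 91 seed sites were in a new peak, against 0.210% of NGG sites and 1.43 given by those with the same CpG number, which is close to the observed number.

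The closest match in a new peak is the site at OTULIN, which encodes a deubiquitinase for linear ubiquitin chains. It differs from the sgRNA by T2G, T3C and T7A, with position 1 at the 5′ terminus, so that 13 bases next to the PAM match without a break. The site lies in the 5′ UTR in exon 1, 10 bp from the start site, in a CGI of 129 CpGs with 75 CpGs in the 500 bp around it. Its peak, chr5:14664168-14665629, had a fold enrichment of 14.7, a q-value of 32.9 on the −log10 scale, and 37 fragments at the summit. Of all new peaks, 94.7% had a lower fold. Of all NGG sites with 75 CpGs around them, 46.2% were in a new peak.

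A further 4 sites with 6 mismatches lay in new peaks. The site at ENC1, an actin-binding protein of the Kelch family, is 238 bp upstream of the start site, in the peak chr5:73935667-73937380 with a fold of 11.8 and 19 fragments. The site at SGSM2, a regulator of RAB GTPases, is 207 bp upstream of the start site, in the peak chr17:2240181-2241578 with a fold of 11.6 and 19 fragments. Both of these lie in large CGIs, of 160 and 211 CpGs.

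The site at ATP2C1, the calcium and manganese pump of the Golgi, lies in the 5′ UTR in exon 1, 205 bp downstream of the start site. Its peak, chr3:130612871-130613144, is 274 bp wide, had the lowest fold of the 13, 6.49, with 10 fragments, and covers only part of the site. The site near ARFGEF1, an exchange factor for ARF GTPases, is at chr8:68256407-68256429, in exon 1 of the long non-coding RNA ARFGEF1-DT and 391 bp upstream of the coding start. Its peak had a fold of 9.45 with 15 fragments, and with 26 CpGs in 500 bp this is the most CpG-poor of the 13 sites.

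Of the 5 sites with 7 mismatches in new peaks, the one at FOXO6, a forkhead transcription factor, is 104 bp upstream of the start site in a CGI of 190 CpGs. Its peak, chr1:41827005-41828356, had a fold of 13.2 with 27 fragments, higher than the fold of 91.2% of all new peaks. The site at NCKAP1, a subunit of the WAVE complex that drives actin assembly, covers the start site itself, in the peak chr2:183902358-183903345 with a fold of 10.6 and 17 fragments. At PSMA1, an alpha subunit of the proteasome core, the site is 170 bp upstream of the start site, in the peak chr11:14541596-14542269 with a fold of 9.58 and 18 fragments.

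The site at GRB14, an adaptor of the insulin receptor, lies in the 5′ UTR in exon 1, 10 bp from the start site, with 6 CpGs within its own 23 bases, the most of these 13. Its peak, chr2:165477616-165478389, had a fold of 7.45 with 11 fragments. The site at THBS1, the secreted matrix protein thrombospondin, is in intron 1, 269 bp downstream of the start site, with a peak at chr15:39872530-39873608, a fold of 7.01 and 14 fragments. It keeps 12 bases next to the PAM and has 28 CpGs around it.

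The remaining 3 sites had 8 or 9 mismatches, and a pair of them lie away from coding start sites. The site nearest to CPLX2, which regulates the release of synaptic vesicles, is intergenic and 74640 bp upstream, in a CGI of 118 CpGs, with the peak chr5:175223618-175224636, a fold of 10.8 and 23 fragments. The site nearest to NEUROG3, a transcription factor of endocrine pancreas development, is 4584 bp upstream, in the peak chr10:71337422-71337825 with a fold of 6.98 and 17 fragments. The site in intron 2 of NATD1, 578 bp from its start site and in no CGI, had a peak at chr17:21156086-21156387 with a fold of 7.43 and 14 fragments.

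The folds of the 13 peaks had a median of 9.58 and ranged from 6.49 to 14.7, and the median of all new peaks was 7.45. At 8 of the 13 the fold was above that median. The width had a median of 1019 bp against 498 bp, a comparison that favours wide peaks, since a wide peak is more likely to hold any given site. The folds come from the same selection and were not compared among peaks of like width. The 13 peaks had a median of 17 fragments at the summit against 18, over a median background rate of 0.983 against 0.966. The upper quartile of this rate was 1.14 for the 13 against 2.39 for all new peaks, and its maximum 1.58 against 286. None of the 13 thus had a high background, as some peaks of the list did. All 13 lay inside the range of the list, whose highest fold was 37.2. These are descriptions of 1 library, and with 13 peaks they were not tested.

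The distance from the middle of the seed site to the summit of its peak had a median of 151 bp and ranged from 33 bp at PSMA1 to 1039 bp near ARFGEF1. At 3 of the 13 peaks, those at PSMA1, NCKAP1 and NEUROG3, the site was within 100 bp of the summit. At THBS1 and ATP2C1, 95.1% and 93.1% of the NGG sites in the same peak were closer to the summit than the seed site, and near ARFGEF1 341 of 348 were. At PSMA1, NCKAP1 and OTULIN few were, with 10.5%, 17.3% and 20.3%. Per peak, the median distance of all its NGG sites ranged from 73 bp to 485 bp with a median of 329 bp over the 13 peaks, and the seed site was nearer than that median in 8 of 13 peaks.

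**Figure D3:**
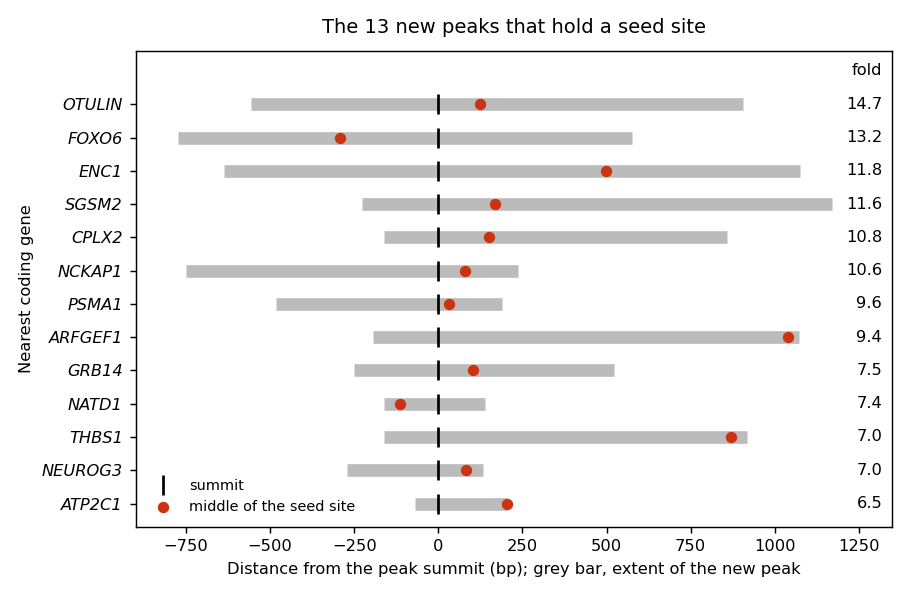
Each row is 1 of the 13 new peaks that hold a seed site, named by the nearest coding gene and ordered by the authors' fold (right), with the extent of the peak (grey), its summit (black tick) and the middle of the seed site (red) on an axis of distance from the summit in bp. The sites lie from 33 bp to 1039 bp from the summit. Those near ARFGEF1, THBS1, ATP2C1, NATD1 and NEUROG3 lie at or close to an edge of their peaks.

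Besides the target, 8 seed sites outside new peaks had 3 to 5 mismatches, and 19 had 6. The 8 sites are described here together with the pair among the 19 that had the most CpGs around them, NOC4L and KIRREL2. The 9 of these 10 that are printed follow, with capitals for the mismatches as before, to show how much of the sgRNA is kept at sites without a new peak.
ZNF532, chr18:56452684-56452706, minus strand: gttGgcAgcAtctcagccgcagg
CHD1L, chr1:146710913-146710935, plus strand: gttAgcCATctctcagccgctgg
CCND1, chr11:69354396-69354418, plus strand: gCCcAcAgcctctcagccgcagg
CNKSR1, chr1:26508858-26508880, minus strand: gtGcCctCcTtctcagccgctgg
MVB12B, chr9:128801013-128801035, minus strand: TCtcTctgActctcagccgctgg
GABRG3, chr15:27326883-27326905, minus strand: AGtcAcAgGctctcagccgctgg
SCGB3A1, chr5:180040045-180040067, plus strand: TtGTgcCgTctctcagccgctgg
NOC4L, chr12:132628993-132629015, minus strand: CAAcgcGgATtctcagccgccgg
KIRREL2, chr19:36347707-36347729, plus strand: TtCATcCgcGtctcagccgcggg

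The target in the 5′ UTR in exon 1 of ISG15, a ubiquitin-like protein induced by interferon, had 22 CpGs in the 500 bp around it and the nearest new peak 11417 bp away. Of all NGG sites with 22 CpGs, 1.12% lay in a new peak. A region enters the list only by passing the authors' threshold over untreated cells, so its absence is not a measure of its methylation. This holds for every site outside new peaks, and a region that was methylated before treatment may not enter the list. The paper reports from bisulfite sequencing that wild type Ab-3A3L strongly methylated the ISG15 target region. The other site with 3 mismatches is intergenic, with ZNF532 as the nearest coding gene at 79403 bp, has 11 CpGs around it and lies 16606 bp from the nearest new peak.

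All 5 sites with 4 mismatches lay outside new peaks, where CpG number gave only 0.0336 of them in a new peak. They were near CHD1L, a chromatin remodeler (3399 bp from its start site), in coding exon 5 of CNKSR1, and in intergenic sequence with CCND1, the cell cycle regulator cyclin D1, MVB12B, a subunit of the ESCRT-I sorting complex, and ZNF704 as the nearest coding genes. The first 4 of these had 8 to 12 CpGs in 500 bp. The site 18923 bp from the ZNF704 start site, at chr8:81805939-81805961, overlaps a CGI of 31 CpGs and had 26 CpGs around it, and its nearest new peak is 19986 bp away. The sites with 5 mismatches lie in an intron of GABRG3, which encodes a subunit of the GABA-A receptor, and in coding exon 25 of FLT4, a receptor of vascular endothelial growth factors, with SCGB3A1 as the nearest start site. They had 7 and 18 CpGs around them, and CpG number gave 0.00422 of these 2 sites in a new peak.

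Among the sites with 6 mismatches, the one at the start site of NOC4L, a nucleolar protein of ribosome assembly, had 76 CpGs in 500 bp, the most of all 106, and its nearest new peak is 45051 bp away. Of all NGG sites with as many CpGs, 44.3% lay in a new peak. The site 84 bp upstream of the KIRREL2 start site, a cell adhesion protein of the nephrin family, had 34 CpGs around it. The new peak closest to it is 426 bp away with a fold of 2.55. At its summit 37 fragments stood over a background rate of 13.9, while the highest rate of the 13 peaks was 1.58. Besides ISG15, NOC4L and KIRREL2, 1 more site at a coding promoter had no new peak, 139 bp from the start site of DHTKD1, a mitochondrial dehydrogenase subunit, with 38 CpGs around it and 9 mismatches.

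Outside new peaks the nearest one was a median of 59903 bp away, and 75 of the 106 sites were more than 10000 bp from any. Within 250 bp of a new peak lay 2 further sites, at 194 bp in an intron of the long non-coding RNA LINC01962 on chromosome 5 and at 191 bp in intergenic sequence on chromosome 22. They had 29 and 25 CpGs around them. With these 2, 15 of the 106 sites lay in a new peak or within 250 bp of one. CpG content gave 9.64, for a ratio of 1.56 (0.895 to 2.45).

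The 106 sites are not all independent places. They hold 98 different 20-base sequences, and 3 sequences occur more than once. A group of 9 sites begins with the letters gattctcc, and all 9 are on chromosome 22. The nearest start site was that of a copy of the POM121L family, related to a nuclear pore protein and mostly annotated as pseudogenes, at 8 of these 9 sites, within 2461 bp. They had 22 to 28 CpGs around them, and none was in a new peak. Of all NGG sites, 1.12% of those with 22 CpGs and 5.13% of those with 28 CpGs were, so few were given among these 9. Without these 9 sites the ratio to CpG content was 1.98 (1.08 to 3.23).

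By position, 47 of the seed sites were in introns and 47 between genes, while 6 lay in 5′ UTR exons and 4 in coding exons. The PAM was TGG at 44 sites, AGG at 29, CGG at 25 and GGG at 8. Seed sites were found on 23 chromosomes, with the most, 13, on chromosome 22, of which 9 are the copies described above.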

How the data were processed

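MBD-seq reads of the wild type library were mapped by the authors to hg19 with Bowtie2 on Galaxy, and the submitters' processing notes also name MACS2. The list of new peaks follows the narrowPeak layout. Its deposited fold is a ratio over background at the summit, given by the authors. Its deposited −log10 columns hold the p-value and q-value (lowest −log10 q 2.00). The deposited score was not used. A last deposited column locates the summit within the peak. All peaks ended within the GRCh37 chromosomes, the build of hg19.

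The sgRNA was read from GRCh37 at its target in ISG15 as the 20-base place whose digest equals that of the published sgRNA. All places of 23 bases on both strands were searched, and a site counted as in a peak from 1 base of overlap. The CpGs were counted in the 500 bp around each site, and each site was given the share in new peaks of all sites with the same PAM kind and CpG number. CGIs were rebuilt on unmasked sequence (CpG score 17, other bases -1, length over 200 bp, GC at least 50%, observed/expected over 0.6), which gave 51758. Start sites were those of canonical transcripts in GENCODE release 44 lifted to GRCh37, 19819 of them protein-coding. Fragments were recovered from fold and p-value by the Poisson formula of MACS2, within 0.000358 of each listed −log10 p, which takes that program as given. Intervals are 95% exact binomial (Clopper-Pearson) and cover counting error only. No test was made, since there is 1 library per condition.

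Named genes are those nearest to the target, to the sites in new peaks and to the 10 sites outside them with the fewest mismatches, where ties went to the site with more CpGs in 500 bp. DHTKD1, LINC01962 and the POM121L copies were named after their values were seen. The members and these rules were chosen with earlier results of these data known. The steps were tested on simulated data. Python 3.11.15 was used with numba 0.67.0, scipy 1.17.1 for the intervals, matplotlib 3.10.9 for plots, and pandas 2.3.3 on numpy 2.4.6.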

Additional observations from a re-analysis of the deposited data

How the results depend on the processing

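Of 27 alternatives, 22 moved a count, fold or distance by no more than 1.5 times, or the ratio to CpG content by no more than its interval of 1.05 to 3.13. In place of 13 seed sites in new peaks there were 8 with only peaks of a −log10 q of at least 10, which are fewer by construction. There were 6 of 60 with an NAG PAM, 102 of 1141 with a seed of 8 bases and 2 of 16 with a seed of 12 bases. In the same order, CpG content gave 4.47, 3.05, 79.0 and 0.566. The sites of the 8-base seed include the 106 seed sites. With 12 bases the ratio was 3.54, from 2 sites in peaks and an interval of 0.439 to 10.8. The ratio was above 1 in all 14 of its alternatives, and the lowest, 1.29 (1.06 to 1.55), was that of the 8-base seed. Its lower bound was under 1 in 9 of the 14. Apart from the NAG PAM, these alternatives share sites with the 106, so they are not independent of the main ratio or of each other. Of these 14, the matching of promoter status, of CGI status and the omission of the copies on chromosome 22 were chosen after seeing the data. The depth limits these values, since 10 to 37 fragments stood at the summits of the 13 peaks. No paired analysis was possible because each condition has only 1 library.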

Other observations

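The share of NGG sites in a new peak did not rise with CpG number over its whole range. It reached 56.6% at 63 CpGs in 500 bp and was 11.7% at 90 CpGs. The seed sites at OTULIN, in a new peak, and at NOC4L, in none, had 75 and 76 CpGs and lie on the falling part.

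In the 13 peaks that hold a seed site, 11 of the seed sites lie at higher coordinates than the summit. Of all 3399 NGG sites in these peaks, 62.5% do.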
